A study of Mus musculus with 4 samples.

Results

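Among the regions where anti-FLAG ChIP of MBD1 exceeded input in the mouse dentate gyrus, a small set carried unusually many input reads. These high-input peaks are the listed peaks on chromosomes 1 to 19 with a mean input of 20 to 47.65 reads per bin, where a bin is a short genomic interval of about 200 bp, as inferred from the values. The upper limit is 4 times the median input of the whole list, 11.9 reads per bin. The rule kept 1502 of 37637 autosomal peaks (3.99%, exact 95% interval 3.80 to 4.19%) and of 37778 peaks in all. Another 11 autosomal peaks lay above the upper limit and were left out. The set is compared with the 24986 autosomal peaks of 8 to 15 input reads per bin, which hold the middle of the list.

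The study mapped MBD1 in dentate gyrus of C57BL6 mice around 9 weeks old from a line that carries FLAG-tagged Mbd1. It has 2 libraries precipitated with an anti-FLAG antibody and 2 input libraries made without antibody. All 4 libraries come from the tagged line, and an anti-FLAG ChIP of untagged mice is not part of the data used here. The labels do not say how Mbd1 was tagged, which promoter drives it, or which and how many animals gave each library. The deposited values are 1 list for all libraries together, so no value below has a replicate error, and the depth of each library is unknown. Intervals of medians show how closely a median is fixed if peaks are taken as independent draws, not how widely peaks vary. Intervals of ratios describe counting error. Peaks are not replicates, and no test was made between the sets.

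MBD1 belongs to the family of proteins with a methyl-CpG-binding domain. It binds methylated CpG, also carries CXXC zinc fingers, one of which, present in some isoforms, binds unmethylated CpG, and represses transcription; in the adult dentate gyrus it is known for its part in the maintenance and maturation of neural stem cells. An input library is sheared chromatin without precipitation. Its coverage is never even: as background, it is known to rise where chromatin breaks easily and where a sequence has more copies in the animal than in the assembly. Peaks were not joined to genes, CpG islands, repeats or copy number, because the positions are on mm9 and no annotation of that build was used, so none of these was tested here.

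High-input peaks were short, stood apart from other peaks, and had more ChIP but a lower ratio over input than the peaks of 8 to 15 input reads. Their median width was 1375.5 bp (95% interval of the median 1333 to 1409) against 3547.5 bp (3503 to 3585), which is 0.388 times as wide. Widths under 2 kb made up 72.2% of them (exact 95% interval 69.8 to 74.4%) against 19.8% (19.3 to 20.3%). The median number of other peaks whose centres lay within 500 kb was 7 against 34. The nearest other peak was 45.6 kb away at the median, against 8.499 kb. The shorter width and the lower count of neighbours held on each of the 19 autosomes taken by itself. There the ratio of the medians ran from 0.315 to 0.454 for width and from 0.121 to 0.278 for neighbours.

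**Figure D1:**
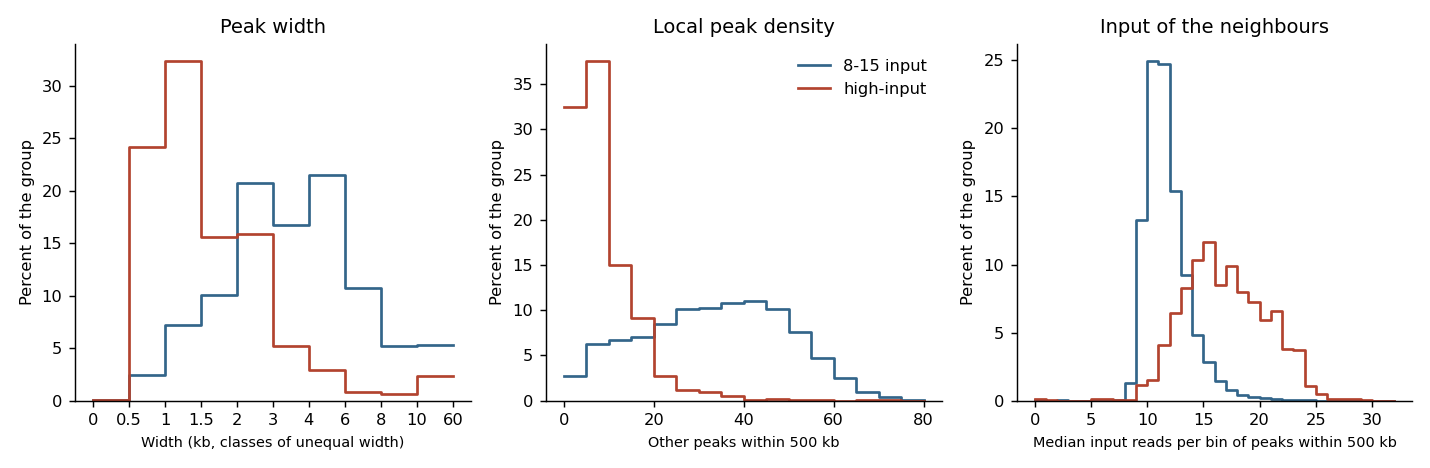
Share of each set (percent) by peak width in kb, by number of other peaks within 500 kb, and by the median input of those other peaks, for high-input peaks (red) and peaks of 8 to 15 input reads (blue); the width classes are unequal. High-input peaks crowd at widths of 0.5 to 2 kb and at under 10 neighbours, and their neighbours' input lies to the right of that of the blue set.

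The set was chosen by its mean input, so the input values are a description. The lowest was 20, the median 22.4 and the highest 44.5 reads per bin, and 95% of the set lay below 30.5. The comparison peaks had a median of 11.5. A mean over few bins scatters more than a mean over many, and the median high-input peak spanned 8 bins against 18 in the comparison set, with 181 input counts in all. How far such scatter bears on the width of the set was not tested.

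ChIP reads were more numerous in high-input peaks, at a median of 102.5 reads per bin (95% interval 100 to 104.6) against 57.9 (57.8 to 58.0), a factor of 1.77. The highest bin of a peak held a median of 164 ChIP counts against 83. How much of this gap goes with the way the list was made was not tested. The deposited scaled input is the input times the constant 2.42, and the lowest mean log2 ratio anywhere in the list was 0.585, which is 1.50-fold. At that fold, 20 input reads correspond to about 72.6 ChIP reads and 30 input reads to about 109. In each class of input from 15 reads per bin up, the lowest deposited log2 ratio was 0.585 to 0.588. In the classes from 8 to 15 reads it was 0.643 to 1.11. The peak caller is unknown here, and the sources do not state whether a limit at that fold was set. By mean counts, 188 high-input peaks (12.5%) had a ratio under 1.5. The lowest ChIP value in the set was 57.8 and the 5th percentile 71.6. The authors averaged log2 ratios over bins and not counts, so mean counts can fall below that level.

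The ratio of mean ChIP to mean scaled input was lower in high-input peaks, at a median of 1.80 (95% interval 1.77 to 1.83) against 2.10 (2.09 to 2.11). It was lower on all 19 autosomes, by factors of 0.809 to 0.927. The deposited mean log2 ratio gave the same order, with medians of 0.82 and 1.23. Both tails were fuller than in the comparison set, but the upper tail was thinner than in the whole autosomal list. A ratio above 3 occurred in 105 high-input peaks (6.99%, exact 95% interval 5.75 to 8.40%), in 2.73% (2.53 to 2.94%) of the comparison set and in 11.2% of all autosomal peaks, which include those of lower input. A ratio under 1.5 occurred in 188 (12.5%), in 0.0160% of the comparison set and in 2.98% of all autosomal peaks. Input is the denominator of this ratio and chose the peaks, so the difference is a description and not evidence on MBD1.

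**Figure D2:**
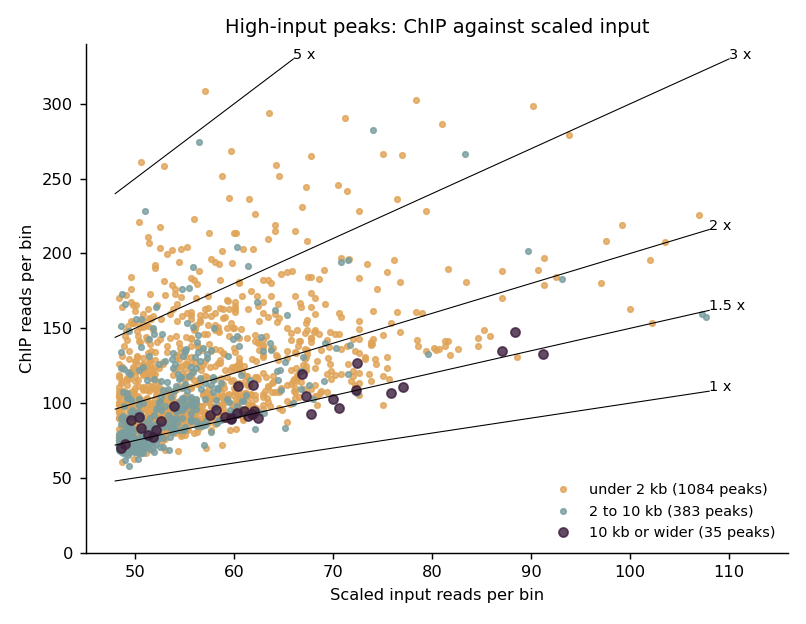
Mean ChIP reads per bin against scaled input reads per bin for each of the 1502 high-input peaks, coloured by width; the lines mark ChIP at 1, 1.5, 2, 3 and 5 times the scaled input. Peaks under 2 kb fan out upwards to 5.41-fold and those of 2 to 10 kb to 4.86-fold, whereas the 35 peaks of 10 kb or wider lie between 1.37-fold and 1.84-fold.

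The ratio did not fall steadily with input. Over classes of rising input it went down from a median of 2.52 at 8 to 10 reads per bin (6080 peaks) to 2.15 at 10 to 12, 1.87 at 12 to 15, 1.65 at 15 to 18 and 1.60 at 18 to 20 (95% interval 1.58 to 1.61, 1459 peaks). Above the limit of 20 it went up again, to 1.70 (1.67 to 1.74) at 20 to 22 reads, 1.84 (1.79 to 1.88) at 22 to 25, 1.89 (1.83 to 1.98) at 25 to 30 and 1.89 (1.75 to 1.99, 89 peaks) at 30 and above. ChIP thus rose faster than input within the high-input range, from a median of 86.3 reads per bin at 20 to 22 input reads to 149 at 30 and above. Over the 1502 peaks Spearman's rho of input was 0.58 with ChIP and 0.20 with the ratio (Pearson's r 0.52 and 0.09). Within the peaks of 8 to 15 reads rho with the ratio was -0.82 (r -0.37). These relations run across peaks of 1 list, which share libraries and the selection by ratio, and the ratio shares its denominator with the input.

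Width and neighbours changed in 1 direction over the same classes above 12 reads. The median width was 3734 bp at 12 to 15 input reads, 2123 bp at 18 to 20, 1586 bp at 20 to 22 and 1031 bp at 30 and above. The median count of neighbours within 500 kb was 39 at 8 to 10 reads, 29 at 12 to 15, 9 at 18 to 20, and 6 in each class above 22. Most of the drop in neighbours therefore lay below the limit of 20.

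**Figure D3:**
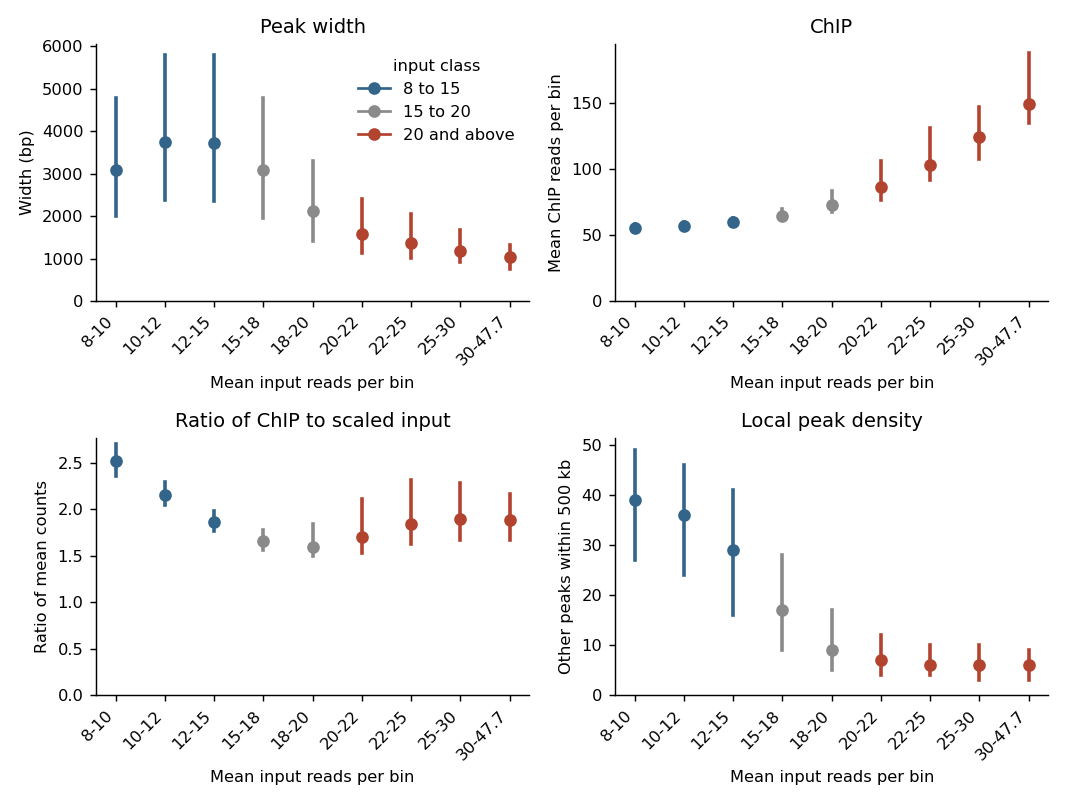
Median (point) and interquartile range (bar) of width in bp, mean ChIP reads per bin, ratio of ChIP to scaled input, and number of other peaks within 500 kb, for autosomal peaks in classes of mean input reads per bin; red classes are the high-input set. ChIP rises towards the right. Neighbours fall up to the class of 22 to 25 input reads, and width falls from the class of 12 to 15 on. The ratio is lowest at 18 to 20 input reads (median 1.60).

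At the limit itself, 39 high-input peaks had exactly 20 input reads per bin, with widths of 318 to 6658 bp (median 1387) and ratios of 1.43 to 3.51 (median 1.71). The first 3 of these in list order stand for them here. On chromosome 1 from 185361200 to 185362304, ChIP was 104.3 reads per bin, 2.16 times the scaled input. On chromosome 10, the peak from 23520411 to 23521599 had 77.7 (1.61-fold) and that from 84003563 to 84004999 had 118.9 (2.46-fold). The 3 peaks nearest below the limit had 19.93 to 19.95 input reads. They lay on chromosome 3 from 142263872 to 142268133 (74.9 ChIP reads, 1.55-fold), on chromosome 5 from 141368974 to 141372199 (97.4, 2.02-fold) and on chromosome 19 from 17142721 to 17145399 (75 ChIP reads, 1.56-fold).

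The ChIP signal of high-input peaks was also more pointed. The ratio of the highest bin to the mean of the peak was 1.53 at the median (95% interval 1.52 to 1.56) against 1.42 (1.42 to 1.42). It was higher on all 19 autosomes, by factors of 1.01 to 1.13. By width class it was 1.38 against 1.31 under 1 kb, 1.56 against 1.33 at 1 to 2 kb, 1.85 against 1.40 at 2 to 5 kb, 1.64 against 1.50 at 5 to 10 kb and 1.83 against 1.59 at 10 kb or more. It was thus higher in the high-input set in each of the 5 classes, with the smallest gap under 1 kb. The summit, the position of highest pile-up, fell between 1/3 and 2/3 of the width in 53.1% of high-input peaks (exact 95% interval 50.5 to 55.6%) against 34.4% (33.9 to 35.0%). Within width classes the shares were closer, and their order was not constant. They were 65.1% and 64.5% under 1 kb, 58.3% and 47.6% at 1 to 2 kb, 34.4% and 31.3% at 2 to 5 kb, 20.6% and 29.3% at 5 to 10 kb (34 high-input peaks) and 37.1% and 30.9% at 10 kb or more. Peaks under 2 kb had the highest shares in both sets and were a larger part of the high-input set. The shape was not used by the rule, but the same ChIP reads make both the shape and the peak call.

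The authors' quality flag (its definition is unknown here) marked 1120 high-input peaks (74.6%, exact 95% interval 72.3 to 76.8%). It marked 30.8% of the whole list and 26.5% of the comparison set. The flag climbed from 61.5% at 20 to 22 input reads to 95.5% at 30 and above, while the median deposited log2 ratio stayed between 0.80 and 0.86 in these classes. A mean p over bins of at most 0.05, a stricter limit, kept 170 high-input peaks (11.3%), beside 3.17% of the whole list and 2.07% of the comparison set. Flag and p come from the comparison of ChIP with input that the rule used. Nothing is therefore read from these shares.

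Around a high-input peak, the other peaks had higher input than those around a comparison peak, though mostly below the limit of 20. In the 1279 high-input peaks with at least 3 others within 500 kb, the median input of those others was 16.7 reads per bin at the median (95% interval 16.3 to 17). It was 11.4 (11.4 to 11.4) around 24740 comparison peaks. The difference had the same sign on all 19 autosomes, with factors of 1.20 (chromosome 16) to 1.83 (chromosome 4). The rule used the input of the peak itself and not that of its neighbours, but neighbours in the set count for each other. The peak's own input was above the median of its neighbours in 1193 of the 1279 (93.3%), as its choice by input favours. The nearest other peak was itself a high-input peak for 471 of the 1502 (31.4%, exact 95% interval 29.0 to 33.8%) and for 1.57% of comparison peaks, while the set makes up 3.99% of the autosomal list.

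Sparse surroundings and higher neighbouring input went together in the comparison set as well. Comparison peaks with 1 to 4 neighbours had a median neighbouring input of 15.8 reads per bin, and those with 40 or more had 10.5. Where both sets were limited to peaks with under 10 neighbours (1052 and 2253 peaks), the factor for neighbouring input was 1.16 (17 against 14.6). High-input peaks there were 0.691 times as wide (1310 against 1897 bp), so the difference in width was smaller than in the whole sets. ChIP was 1.66 times as high there, below the 1.77 of the whole sets. The ratio was 0.850 times as high, close to the 0.855 of the whole sets.

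Only 88 high-input peaks (5.86%, exact 95% interval 4.73 to 7.17%) had 20 or more neighbours, where 77.3% of the comparison peaks stood. At the other end, 31 had none within 500 kb (2.06% against 0.104%), and 462 lay over 100 kb from any other peak (30.8% against 3.35%). Of the 3 with the most neighbours, 2 had ratios of 1.47. On chromosome 5 from 61040110 to 61042664, 71 neighbours surrounded a peak of 74.2 ChIP and 20.9 input reads per bin (1.47-fold, 95% counting interval 1.29 to 1.67). On the same chromosome from 80240402 to 80244799, 66 neighbours surrounded 134.7 ChIP over 26 input reads (2.14-fold, 1.96 to 2.35), with 449 counts in the highest bin. On chromosome 10 from 15893809 to 15895998 there were 56 neighbours, 75 ChIP and 21.1 input reads (1.47-fold, 1.27 to 1.71). The neighbours of all 3 had ordinary input, at medians of 12.1, 9.67 and 9.89 reads per bin.

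High-input peaks were unevenly shared among the autosomes. Chromosome 5 held the most (167, or 1.12 per Mb between its outermost listed peaks), then 4 (156, 1.03 per Mb), 2 (137, 0.767) and 8 (106, 0.825). These 4 held 37.7% of the set and 25.3% of all autosomal peaks. Chromosomes 19 (20 peaks, 0.344 per Mb), 3 (63, 0.402) and 16 (41, 0.431) had the fewest per Mb. As a share of an autosome's peaks, chromosome 11, which is known as gene-dense, came first with 7.96% (exact 95% interval 6.41 to 9.73%; 86 of 1081 peaks). Chromosome 5 had 6.68% (5.73 to 7.73%) and chromosome 4 6.11% (5.21 to 7.11%), both with intervals that overlap that of chromosome 11. Chromosome 3, with the most peaks per Mb, came last with 1.94% (1.50 to 2.48%).

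Over the 19 autosomes the share was lower where peaks were denser (Spearman's rho -0.59, Pearson's r -0.54), a relation in which all peaks are the denominator of one measure and the numerator of the other. High-input peaks per Mb showed almost no relation with all peaks per Mb (rho -0.14, r -0.02). Chromosome 3 was low in both measures. Chromosome 11 led in share with 0.724 high-input peaks per Mb, below chromosomes 2, 4, 5, 8 and 17, and it had the fewest listed peaks per Mb of the autosomes (9.10).

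**Figure D4:**
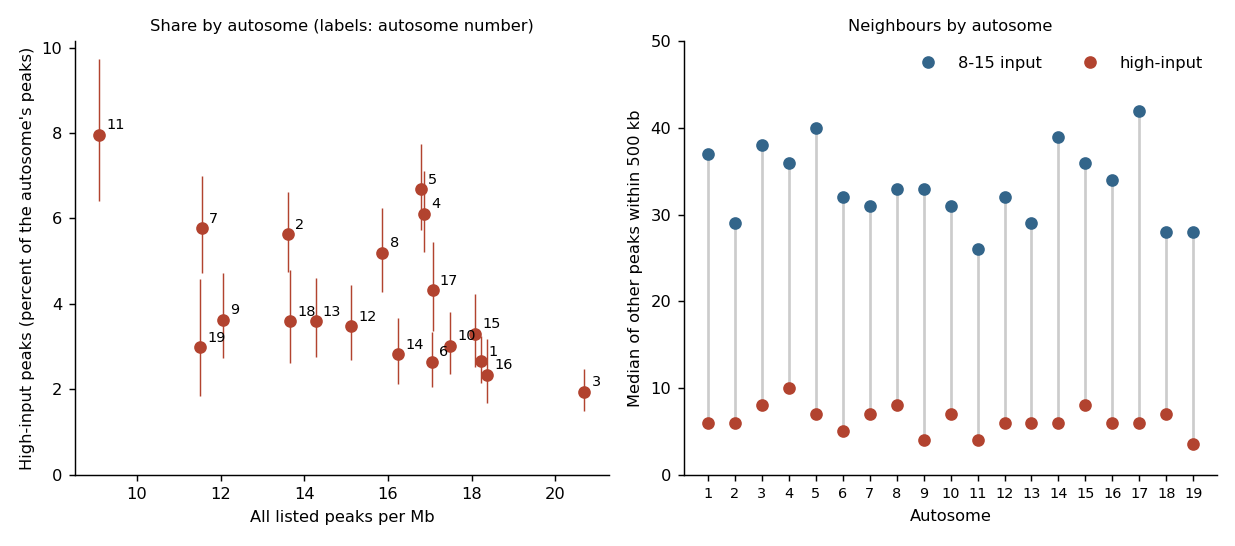
Left, high-input peaks as a percent of an autosome's peaks (bars are exact 95% intervals) against all listed peaks per Mb, 1 point per autosome; right, the median number of other peaks within 500 kb for high-input peaks and for peaks of 8 to 15 input reads on each autosome. Chromosome 11 is highest at 7.96% and chromosome 3 lowest at 1.94%, and the red point lies below the blue one on all 19 autosomes.

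Within autosomes the set leaned to the distal end. The last 10% of the span held 349 high-input peaks (23.2%, exact 95% interval 21.1 to 25.5%) and 5.67% of the comparison peaks, while the first 10% held 6.26% and 11.8%. High-input peaks were 13.2% of all peaks in the last 10% and 3.29% elsewhere. The lean held on most autosomes but not on all, and its size varied. By number, most distal high-input peaks lay on chromosome 4 (70 peaks, 44.9% of its high-input peaks against 1.60% of its comparison peaks), 2 (51, 37.2% against 1.72%), 8 (37, 34.9% against 1.88%), 5 (32, 19.2% against 1.80%) and 7 (31, 31.3% against 0.886%). These 5 autosomes gave 221 of the 349. On chromosome 9, with 16 such peaks, the shares were 30.2% and 2.90%. On 16 autosomes the share was above that of the comparison set, and on chromosomes 13, 17 and 18 it was below. Distal high-input peaks had medians of 1434 bp, 112 ChIP and 22.8 input reads per bin, and a ratio of 1.91, against 1369 bp, 99.8, 22.2 and 1.77 in the others.

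In windows of 5 Mb, the set had a median of 2 peaks per window, and 105 of 502 windows with any peak had none. A group of 23 windows with 10 or more held 394 high-input peaks (26.2%). The fullest, 135 to 140 Mb on chromosome 4, held 39 among 58 peaks, with a median width of 1239 bp, 141.1 ChIP reads per bin and a ratio of 2.21. Next came 35 to 40 Mb on chromosome 5 (26 of 47), 165 to 170 Mb on chromosome 2 (25 of 44, ratio 2.27) and 110 to 115 Mb on chromosome 5 (25 of 52, ratio 2.35). In these 4 windows high-input peaks made up 48.1 to 67.2% of the listed peaks, and their median ratio was above the 1.80 of the whole set. The next window, 145 to 150 Mb on chromosome 4 (23 of 42), had a median width of 9889 bp and a ratio of 1.67, below that of the whole set.

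Another form of high-input peak was wide, with a low ratio. The 35 peaks of 10 kb or more were 2.33% of the set and gave 22.1% of its covered bases (712 of 3225 kb). Their median width was 16829 bp, with 93.5 ChIP and 25.2 input reads per bin. Their median ratio was 1.54, and the range was narrow, from 1.37 to 1.84, against 1.22 to 5.41 in the 720 peaks of 1 to 2 kb. The quartiles were 1.49 and 1.66 against 1.62 and 2.34. A range over fewer peaks tends to be narrower, and means over more bins scatter less. How far this bears on the difference was not tested. Comparison peaks of 10 kb or more had a median ratio of 1.95. The wide high-input peaks stood on 9 autosomes, 16 of them on chromosome 4, 7 on chromosome 3 and 3 on chromosome 17. For 30 of the 35 another high-input peak lay within 500 kb, and the median gap to the nearest peak was 5.38 kb, against 62.9 kb for high-input peaks under 1 kb. All 35 carried the quality flag, which marked 30.8% of the whole list and 56.6% of comparison peaks of this width. A mean p of at most 0.05 was met by 30 of them (85.7%). It was met by 11.3% of the set, 3.17% of the whole list and 8.18% of comparison peaks of this width.

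Most high-input peaks had no other high-input peak within 100 kb. Within 500 kb between centres, 945 (62.9%) had another high-input peak. Such a peak lay within 500 kb of 14.1% of comparison peaks and 19.1% of all autosomal peaks. With high-input peaks up to 100 kb apart joined, the set fell into 1194 blocks. Of these 1021 had 1 peak, 148 held 2 or 3 and 25 held 4 or more, with 145 peaks. Blocks of short peaks and blocks of wide peaks were both among the largest. On chromosome 4 from 139645710 to 140216892, 14 of 16 listed peaks were high-input, with a median width of 1449.5 bp and ratios of 1.66 to 3.71. On chromosome 5 from 111927058 to 112418265 it was 12 of 18, with a median width of 1339.5 bp and ratios of 1.30 to 3.12 (median 2.55). From 136184240 to 136439550 on chromosome 4 all 7 peaks were high-input, none wider than 1508 bp, with ratios of 2.08 to 3.20. The blocks of wide peaks described next had lower median ratios, of 1.49 to 1.64, against 2.16 to 2.65 in these blocks of short peaks. The 2 forms overlapped in other blocks. Medians were 1.70 and 1.75 in blocks of short peaks on chromosome 4 from 127620000 and on chromosome 5 from 38227538. A block on chromosome 13 from 12948820, with 2 peaks of 10 kb or wider, had 1.72. From 146763914 to 146987756 on chromosome 4, 8 of 13 peaks were high-input, 6 of them 10 kb or wider, covering 130 kb of 224 kb with ratios of 1.50 to 1.84. From 105923907 to 106114019 on chromosome 3 it was 7 of 9, also with 6 of 10 kb or wider, and ratios of 1.37 to 1.81. From 121642504 to 121823217 on chromosome 4 all 5 peaks were high-input, with a median width of 16713 bp and ratios of 1.49 to 1.79. A block on chromosome 17 from 58839421 to 59224399 held 7 among 14 peaks, with ratios of 1.44 to 1.54.

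The 10 high-input peaks with the largest ratio of mean counts were 584 to 2176 bp wide and had 1 to 11 neighbours. The whole set was similar in the middle, with medians of 1375.5 bp and 7 neighbours and 72.2% of widths under 2 kb. Their ratios ran from 4.14 to 5.41 with 20.8 to 26.2 input and 218 to 308 ChIP reads per bin. The deposited mean log2 ratio ranks the set otherwise. Its highest value was 2.56, in a peak of 5 to 10 kb with 20 to 39 neighbours and 30 or more input reads. The highest among these 10 was 2.18. The first lay on chromosome 5 from 144928097 to 144929222, where 308.3 ChIP stood over 23.6 input reads per bin (5.41-fold, 95% counting interval 4.61 to 6.37). Its nearest listed peak was 316 kb away. The second lay on chromosome 17 from 25765673 to 25767599, with 261.1 over 20.9 (5.16-fold, 4.48 to 5.97). The third lay on chromosome 5 from 141352217 to 141353959, with 258.8 over 21.9 (4.89-fold, 4.22 to 5.68). It stood 15 kb from another peak and among neighbours with a median input of 20.1 reads per bin. The counting intervals of these 3 overlap, so their order is not fixed by the counts.

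Others of the 10 had a similar build. On chromosome 4 from 130488104 to 130490279 the ratio was 4.86 (4.30 to 5.51). On chromosome 8 from 73956728 to 73957311, the narrowest of the 10, it was 4.63 (3.79 to 5.71) from 4 bins. Chromosome 2 held 2, from 151450443 to 151451542 (4.49, 3.80 to 5.35) and from 167575525 to 167577599 (4.48, 3.91 to 5.14), and the neighbours of the latter had a median input of 29.3 reads per bin. The last 3 lay on chromosome 13 from 114942971 to 114943987 (4.38), chromosome 1 from 193470200 to 193471510 (4.28) and chromosome 3 from 122010644 to 122011999 (4.14).

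At the low end, the ratio was barely above 1. On chromosome 7 from 77647600 to 77650263, 57.8 ChIP reads stood over 49.4 scaled input reads per bin (1.17-fold, 1.02 to 1.34), although the deposited mean log2 ratio of this peak was 0.76. On chromosome 3 from 157296614 to 157298088 the ratio was 1.22 (1.03 to 1.45), and on chromosome 8 from 97039200 to 97040558 it was 1.23 (1.03 to 1.47). For such peaks the deposited mean of log2 ratios is above the log2 of the ratio of means, so their excess over input depends on how bins were averaged. Whether their place in the list does was not tested.

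The 3 peaks with the most ChIP and the 3 with the highest input were different peaks. Over the whole set, however, ChIP rose with input (Spearman's rho 0.58). After the first peak above, ChIP was highest on chromosome 6 from 142885977 to 142886696 (302.4 over 32.4 input reads, 3.86-fold, 3.28 to 4.56) and on chromosome 3 from 148715017 to 148716343 (298.6 over 37.3, 3.31-fold, 2.91 to 3.78). Input was highest on chromosome 4 from 145737010 to 145746099, a peak of 9090 bp with 157.3 ChIP over 44.5 input reads (1.46-fold, 1.39 to 1.53). It was 44.3 on chromosome 8 from 73653088 to 73657186 (1.49-fold, 1.38 to 1.60) and 44.2 on chromosome 9 from 15084116 to 15084829, a short peak of 714 bp (2.11-fold, 1.82 to 2.45). The short peak of these 3 had a higher ratio than the other two, with an interval that does not overlap theirs.

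The widest high-input peaks were on chromosome 17 from 59075360 to 59128723 (53364 bp, 70.2 ChIP over 20.1 input reads per bin, 1.45-fold, 1.40 to 1.49), on chromosome 4 from 121687954 to 121726654 (38701 bp, 1.55-fold, 1.50 to 1.60) and on chromosome 4 from 61481237 to 61518349 (37113 bp, 1.44-fold, 1.39 to 1.49). Their intervals are tight because they rest on 5377, 4863 and 4800 input counts. The narrowest was on chromosome 8 from 3445299 to 3445616, with 318 bp, 3 bins and 60 input counts, and a ratio of 1.98 (1.49 to 2.66). The next were on chromosome 6 from 28394011 to 28394541 (531 bp, 1.75-fold, 1.34 to 2.31) and on chromosome 2 from 164472711 to 164473249 (539 bp, 1.68-fold, 1.34 to 2.14). At these widths the counts fix the ratio only loosely.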

How the data were processed

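The submitters' processing notes name Bowtie 0.12.7 and the build mm9; reads were single and 100 bp long, and libraries averaged 350 bp, per the labels. The sources used here do not give the peak caller, the treatment of duplicate and multiply aligned reads or the way libraries were pooled. The deposited list gives mean ChIP and input signal as reads per bin, and the scaled input, which was the input times 2.42 throughout. The highest bin of a peak is a whole-number ChIP count, per the file headers. Over bins the authors averaged log2 ratios, which gives the deposited log2 value. By its header, the deposited −log10 column used holds the mean p-value over bins, computed in an unknown way. The list's name states a false discovery rate of 0.20.

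The ratio used here is mean ChIP over mean scaled input. Bins per peak were inferred as the number nearest to width over 200 bp that made both sums whole (tolerance 1e-06), within 1 of that quotient in 70.2% of high-input peaks, and summed counts rest on it. Neighbours are autosomal peaks with centres within 500 kb, and their input was summarised where there were at least 3. Medians have binomial, shares exact Clopper-Pearson, inputs exact Poisson and ratios exact binomial 95% intervals. These cover only counting error, or the error of a median or share over peaks taken as independent. Reads are not independent molecules. The peak set, its limits and the comparisons were chosen with earlier results of these data known. Peaks named are the 10 of largest ratio and the 3 at each other extreme (lowest ratio, ChIP, input, width, neighbours, limit); windows, blocks and width classes were chosen after values were seen. An edgeR test, planned in case the list split its counts by library, could not be run. Alternatives were stricter lists, other input limits, windows and widths, joined peaks and single autosomes. The calculations were tested on simulated data. Software was scipy 1.17.1, numpy 2.4.6 and pandas 2.3.3 under Python 3.11.15, with matplotlib 3.10.9 for plots.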

Additional observations from a re-analysis of the deposited data

How the results depend on the processing

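The 5 comparisons of medians, as factors of high-input over comparison peaks, kept their direction under all alternatives computed. Width was 0.388 (interval 0.372 to 0.402), ChIP 1.77 (1.73 to 1.81), the ratio 0.855 (0.840 to 0.872), neighbours 0.206 (0.176 to 0.212) and neighbouring input 1.46 (1.43 to 1.49). With a mean p of at most 0.05 there were 170 peaks, and width was 0.179, ChIP 2.43, ratio 0.937 and neighbouring input 1.62. With the quality flag the values were 0.327, 1.95, 0.874, 0.171 for neighbours and 1.53. A lower limit of 18 gave 2961 peaks with 0.473, 1.47, 0.802, 0.235 and 1.35, and a limit of 25 gave 369 peaks with width 0.320, ChIP 2.30, ratio 0.901 and neighbouring input 1.58. Width was 0.365 against peaks of 10 to 13 input reads. With peaks of at least 1 kb width was 0.457 and ChIP 1.71. By single autosomes the median was 0.371 for width, 1.72 for ChIP and 1.39 for neighbouring input. The deposited mean of log2 ratios gave 0.753 for the ratio. Windows of 100 kb and 2.5 Mb gave 0.143 and 0.295 for neighbours and 1.62 and 1.34 for their input. Chosen after seeing the data were the neighbouring input and 4 settings. With under 10 neighbours in both sets width was 0.691, ChIP 1.66, neighbours 0.833 and neighbouring input 1.16; the near loss of the neighbour difference follows from the limit. Without the last 10% of each autosome neighbouring input was 1.40. Leaving out peaks of 10 kb or more moved none of the 5 beyond these intervals, nor did joining peaks under 1 kb apart; requiring a lower counting bound of input above 15 left out 1 peak and says nothing further. For all other shifts the cause was not tested; fewer or more peaks under the limits follow from their construction. No paired analysis was possible because 1 list pools the libraries, and for the same reason no replicate could be left out. Depth limits the ratio of narrow peaks most.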
